A study of Mus musculus with 9 samples.

Results

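Immediate early genes and ERK output genes of the mouse uterus were compared between Wnk1d/d mice, which lose the kinase WNK1 in uterine cells, and Wnk1f/f controls. The 10 genes were chosen by symbol, 5 as immediate early genes (*Fos*, *Fosb*, *Jun*, *Junb* and *Egr1*) and 5 as ERK output genes (*Dusp6*, *Spry2*, *Spry4*, *Etv4* and *Etv5*), and all 10 were found among the 31274 entries of the expression table. Whole uteri were taken on day 4.5 of pseudopregnancy, the receptive phase, from virgin C57BL/6 females aged 6 to 10 weeks that had been mated to vasectomized males. Each of the 9 libraries held RNA from 1 mouse, with 4 Wnk1f/f and 5 Wnk1d/d mice. Wnk1f/f mice carried *Wnk1* alleles with loxP sites on both sides of exon 2 and no Cre. Wnk1d/d mice carried the same alleles together with a Cre recombinase expressed from the progesterone receptor gene, which removes exon 2 of *Wnk1*. Immune and endothelial cells lack the progesterone receptor and keep an intact *Wnk1*, so the deletion does not reach every cell of the uterus.

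ERK is the last kinase of a cascade that runs from growth factor receptors through RAS, RAF and MEK. Active ERK phosphorylates transcription factors, and the immediate early genes are switched on within minutes without new protein synthesis, fade quickly, and also respond to cytokines, calcium and stress. A further set of genes follows sustained ERK activity more closely: it includes phosphatases and Sprouty proteins that dampen the pathway, and ETS factors of the PEA3 group. In the uterus, fibroblast growth factors from the stroma activate ERK in the epithelium, a signal that progesterone restrains.

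Expression was measured as FPKM, fragments per kilobase of transcript scaled to the fragments in the library, which corrects for gene length and library size. Absolute depth is unknown. The worth of 1 fragment was read from 20 entries with very low FPKM, 4 to 11 of them in each library. It differed by at most 1.31 times between libraries. Only entries whose values above 0 lay close together across libraries were used, which limits this ratio in advance. It therefore cannot show that the libraries were of equal depth. Genotypes were compared on log2(FPKM + 1) with limma for the 14728 genes whose mean FPKM exceeded 1 in either genotype, and a gene was called when its Benjamini-Hochberg adjusted p was under 0.05. On this scale the fold change of a gene with low FPKM comes out too small. *Wnk1* was measured at 44.9, 43.4, 47.3 and 45.5 FPKM in Wnk1f/f replicates 1 to 4 and at 33.9, 29.9, 31.0, 30.2 and 31.3 FPKM in Wnk1d/d replicates 1 to 5. Every Wnk1d/d library lay below every control, in keeping with the labels (log2 fold change -0.52 with an SE of 0.06, limma adjusted p = 0.00167).

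The uterine markers *Pgr*, *Esr1*, *Hoxa10*, *Hoxa11*, *Hand2* and *Foxa2* were present in all libraries, with *Hoxa10* the most abundant. Of these 6 genes 3 were called lower in Wnk1d/d uteri, *Hoxa10*, *Hoxa11* and *Hand2*, beside 11.0% of all tested genes. *Pgr*, *Esr1* and *Foxa2* had higher means there and were not called. The summed level of the 6 genes was 603 ± 27.7 FPKM (SD, n = 4) in Wnk1f/f and 439 ± 47.9 FPKM (SD, n = 5) in Wnk1d/d libraries. Some libraries stood apart from their group. Wnk1f/f replicate 4 had a score of -48.3 on the first principal component, against -23.0 to -18.3 in the other controls, and carried liver transcripts, with *Alb* at 77.7 FPKM against at most 1.5 FPKM in the other 8 libraries. The liver markers *Apoa1*, *Apoa2*, *Ahsg*, *Ttr* and *Fgb* were also highest in this library. *Serpina1a* was not, at 13.37 FPKM against 23.28 and 13.42 FPKM in Wnk1d/d replicates 1 and 2. Wnk1d/d replicate 2 had a score of 3.22 on that component, nearest to the controls, against 21.8 to 29.7 in the other Wnk1d/d libraries. In Wnk1d/d replicate 4 a single entry took 70.3% of the summed FPKM, while the median log2(FPKM + 1) of the tested genes was close to that of the other libraries (3.79 to 3.82 over all 9).

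Of the 5 immediate early genes, *Egr1* was lower in Wnk1d/d uteri, and *Fos*, *Fosb*, *Jun* and *Junb* were not called. The latter 4 had higher means in Wnk1d/d uteri, the largest log2 fold changes being those of *Fos* and *Fosb*, which spread widely among the Wnk1d/d mice. Thus 1 of 5 was called, against 22.1% of all tested genes, and 1 of 5 was called lower, against 11.0%. *Egr1* was also the only member without overlap between the genotypes, against 19.9% of tested genes.

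*Fos* encodes the partner of JUN proteins in the AP-1 transcription factor. *Fos* was measured at 7.45, 9.07, 8.06 and 5.89 FPKM in Wnk1f/f replicates 1 to 4 and at 13.4, 6.90, 20.4, 27.1 and 5.84 FPKM in Wnk1d/d replicates 1 to 5. Wnk1d/d replicates 1, 3 and 4 exceeded every control, replicate 2 lay among the controls and replicate 5 lay just below all of them. The means were 7.62 ± 1.33 FPKM (SD, n = 4) and 14.7 ± 9.05 FPKM (SD, n = 5), a ratio of 1.93. This difference was within the spread of the libraries (log2 fold change 0.67, 95% interval -0.21 to 1.56, limma adjusted p = 0.236, exact two-sided permutation p = 0.222). The log2 fold change was 0.41 without Wnk1d/d replicate 4 and 0.92 without Wnk1d/d replicate 5, and *Fos* was called under none of the alternatives (limma adjusted p from 0.106 to 0.480). Among Wnk1d/d libraries the SD of *Fos* was 0.88 on the log2(FPKM + 1) scale, larger than that of 98.8% of the tested genes, and among controls it was 0.23, larger than that of 73.4%.

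*Fosb* encodes a close relative of FOS. Its level was low, at 1.21, 0.48, 0.45 and 0.39 FPKM in Wnk1f/f replicates 1 to 4 and 0.64, 1.74, 3.10, 3.39 and 0.38 FPKM in Wnk1d/d replicates 1 to 5. As for *Fos*, Wnk1d/d replicates 3 and 4 were the highest of the 9 libraries and replicate 5 the lowest, but replicates 1 and 2 changed places. The means of 0.632 ± 0.387 FPKM (SD, n = 4) and 1.85 ± 1.38 FPKM (SD, n = 5), a ratio of 2.92, did not differ beyond this spread (log2 fold change 0.68, 95% interval -0.12 to 1.48, limma adjusted p = 0.189, exact two-sided permutation p = 0.143). At this low level the log2 fold change moved with the pseudocount, to 1.24 with 0.01, and it was 0.43 with library weights. *Fosb* was called under none of the alternatives it could be tested in (limma adjusted p from 0.0850 to 0.467).

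*Fos* and *Fosb* were high in the same pair of Wnk1d/d libraries, and whether their promoters bear on this was not tested. The 150 bases before their start sites are shown, from RefSeq on GRCm38.p6. Capitals mark TGACG, the core of the cAMP response element. The *Fos* stretch lies at chr12:85473740-85473889 on the plus strand and the *Fosb* stretch at chr7:19310046-19310195 on the minus strand.
Fos: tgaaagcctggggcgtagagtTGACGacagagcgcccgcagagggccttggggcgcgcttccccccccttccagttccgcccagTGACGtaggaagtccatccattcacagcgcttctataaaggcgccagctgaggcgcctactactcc
Fosb: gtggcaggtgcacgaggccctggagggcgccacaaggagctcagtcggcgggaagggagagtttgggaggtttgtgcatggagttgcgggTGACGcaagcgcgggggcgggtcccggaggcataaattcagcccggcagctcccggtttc
TGACG began 129 and 66 bases before the start of *Fos*, 60 bases before that of *Fosb* and 106 bases before that of *Junb*. RefSeq promoters of 300 bases, 250 of them before the start, were matched by symbol for 7 of the 10 genes, *Fos*, *Fosb*, *Jun*, *Junb*, *Dusp6*, *Spry2* and *Etv5*. These 7 genes held 8 promoters, and the counts below are of genes, set beside shares of single promoters. On either strand TGACG was found in 3 of these 7 genes and in 20.8% of all 32851 promoters. The full response element TGACGTCA, which contains it, was in 0 of 7 and 1.79% of all promoters. The AP-1 motif TGANTCA was likewise in 0 of 7 and 7.81%, the CArG box bound by serum response factor in 0 of 7 and 1.63%, and the ETS motif CCGGAAG in 0 of 7 and 8.86%. These are matches of letters within the windows searched, and binding was not measured. Sites more than 250 bases before a start were not searched, and *Egr1*, *Spry4* and *Etv4* had no window. A count of 0 therefore does not show that a gene lacks the motif.

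*Jun* and *Junb* encode the JUN partners of AP-1 and were the most abundant of the 10 genes. *Junb* was measured at 35.4, 58.2, 53.2 and 33.0 FPKM in Wnk1f/f replicates 1 to 4 and at 56.5, 44.2, 58.4, 67.8 and 57.1 FPKM in Wnk1d/d replicates 1 to 5. Wnk1d/d replicates 3 and 4 exceeded all controls, but controls 2 and 3 lay among the Wnk1d/d values, and the difference was not called (log2 fold change 0.36, 95% interval -0.05 to 0.77, limma adjusted p = 0.179). The log2 fold change was 0.23 without Wnk1f/f replicate 4 and 0.49 without Wnk1f/f replicate 2, and *Junb* was called under none of the alternatives. *Jun* ranged from 46.5 to 69.0 FPKM in Wnk1f/f and from 43.0 to 74.3 FPKM in Wnk1d/d libraries, with both extremes among the Wnk1d/d mice. Its log2 fold change was 0.10, with a 95% interval of -0.26 to 0.45 (limma adjusted p = 0.686). It was 0.005 without Wnk1f/f replicate 4 and 0.22 without Wnk1d/d replicate 1, and *Jun* was called under none of the alternatives.

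*Egr1* encodes a zinc finger transcription factor induced by growth factors, and the gene lies on the plus strand of chromosome 18 (mm10, 34859823 to 34864984, GENCODE release M21). Its FPKM was 25.8, 25.2, 26.9 and 29.9 in Wnk1f/f replicates 1 to 4 and 22.9, 16.6, 15.6, 22.7 and 19.3 in Wnk1d/d replicates 1 to 5. All 5 Wnk1d/d libraries lay below all 4 controls, and the 2 libraries with the highest *Fos*, Wnk1d/d replicates 4 and 3, held the second highest and the lowest *Egr1* of the Wnk1d/d mice. The means were 27.0 ± 2.09 FPKM (SD, n = 4) and 19.4 ± 3.37 FPKM (SD, n = 5), 1.39-fold lower in Wnk1d/d uteri (log2 fold change -0.47 with an SE of 0.12, limma adjusted p = 0.0249). The exact two-sided permutation test gave p = 0.0159, the smallest that 4 against 5 libraries allow when the smaller tail is doubled. In whole tissue, fewer cells of a type and less RNA per cell cannot be told apart. Wnk1f/f replicate 4, the library with liver transcripts, held the highest *Egr1*. The call was lost without this library, Wnk1d/d replicate 3 or Wnk1d/d replicate 5 (limma adjusted p = 0.0713, 0.0515 and 0.0521). It was also lost with the replicate number as a block (log2 fold change -0.47, limma adjusted p = 0.0852). Same-numbered libraries come from different mice, however, and the block also takes Wnk1d/d replicate 5 out of the comparison. Over all alternatives the adjusted p ranged from 0.0157 to 0.0852.

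**Figure D1:**
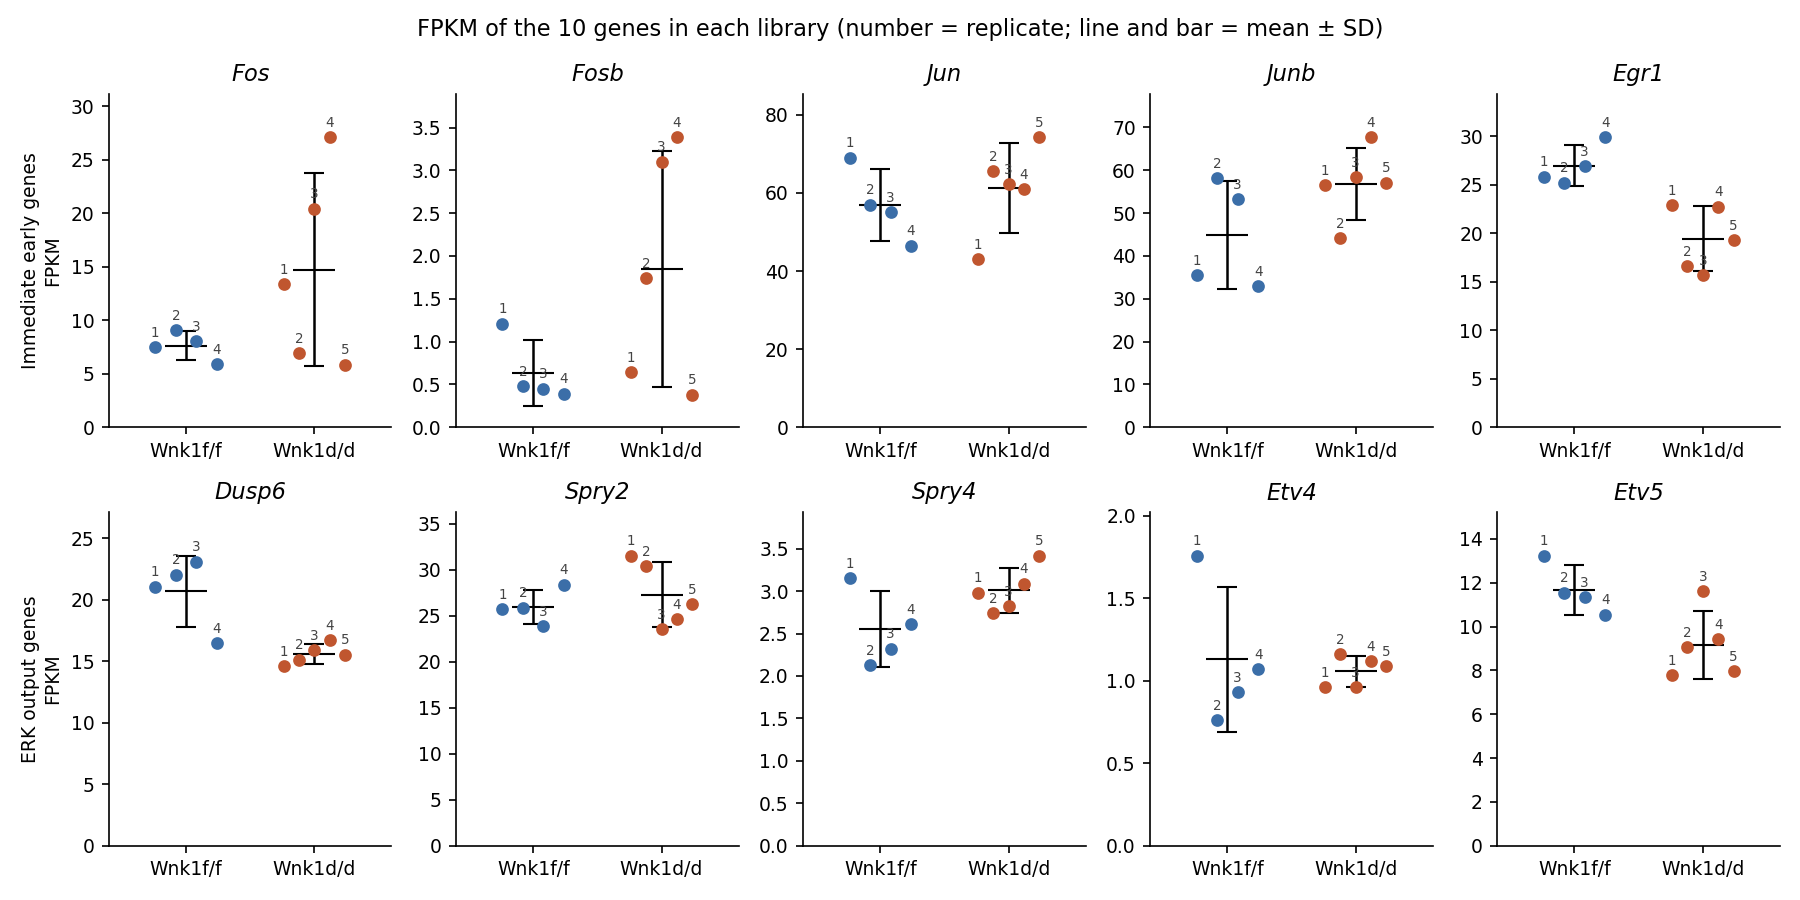
FPKM (vertical axes, each from 0) of the 5 immediate early genes (top) and the 5 ERK output genes (bottom) in 4 Wnk1f/f (blue) and 5 Wnk1d/d (orange) libraries, with points numbered by replicate and lines with bars for the mean ± SD. Wnk1d/d replicates 3 and 4 carry the highest *Fos* and *Fosb*, the genotypes separate for *Egr1*, and for *Dusp6* Wnk1f/f replicate 4 at 16.5 FPKM lies at the level of the Wnk1d/d libraries.

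Of the 5 ERK output genes, *Dusp6* was lower in Wnk1d/d uteri, and *Spry2*, *Spry4*, *Etv4* and *Etv5* were not called. Again 1 of 5 was called, and called lower, beside 22.1% and 11.0% of all tested genes. *Etv5* had a lower mean in Wnk1d/d uteri and missed the threshold, while *Spry2*, *Spry4* and *Etv4* had intervals that spanned 0.

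*Dusp6* encodes a cytoplasmic phosphatase that removes the activating phosphates from ERK, and lies on the plus strand of chromosome 10 (mm10, 99263231 to 99267489). It was measured at 21.1, 22.0, 23.1 and 16.5 FPKM in Wnk1f/f replicates 1 to 4 and at 14.6, 15.1, 15.9, 16.7 and 15.5 FPKM in Wnk1d/d replicates 1 to 5. The Wnk1d/d libraries lay close together and 4 of the 5 were below every control. Wnk1d/d replicate 4 exceeded Wnk1f/f replicate 4, the library with liver transcripts, and no other control. The means were 20.7 ± 2.92 FPKM (SD, n = 4) and 15.6 ± 0.810 FPKM (SD, n = 5), 1.33-fold lower in Wnk1d/d uteri (log2 fold change -0.38 with an SE of 0.09, limma adjusted p = 0.0225, exact two-sided permutation p = 0.0317). Without Wnk1f/f replicate 1, 2 or 3 the call was lost (limma adjusted p = 0.0539, 0.0559 and 0.0526). It was also lost with the replicate number as a block (log2 fold change -0.38, limma adjusted p = 0.132). As for *Egr1*, this block joins different mice and takes out Wnk1d/d replicate 5. Without Wnk1f/f replicate 4 the log2 fold change was -0.48 (limma adjusted p = 0.00896), and over all alternatives the adjusted p ranged from 0.00811 to 0.132.

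*Etv5* and *Etv4* encode ETS transcription factors of the PEA3 group. *Etv5* was measured at 13.2, 11.5, 11.3 and 10.5 FPKM in Wnk1f/f replicates 1 to 4 and at 7.78, 9.06, 11.6, 9.43 and 7.95 FPKM in Wnk1d/d replicates 1 to 5. Of the Wnk1d/d libraries 4 lay below every control, and replicate 3 lay among the controls. The difference missed the threshold (log2 fold change -0.32, 95% interval -0.58 to -0.07, limma adjusted p = 0.0667, exact two-sided permutation p = 0.0635). It passed the threshold without Wnk1d/d replicate 3 (log2 fold change -0.41, limma adjusted p = 0.0281, range over all alternatives 0.0281 to 0.253). *Etv4* stood near 1 FPKM, from 0.76 to 1.76 FPKM in Wnk1f/f and from 0.96 to 1.16 FPKM in Wnk1d/d libraries, with both extremes among the controls (log2 fold change -0.03, 95% interval -0.33 to 0.27).

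*Spry2* and *Spry4* encode Sprouty proteins, which inhibit signalling from receptor tyrosine kinases to ERK. *Spry2* ranged from 23.8 to 28.4 FPKM in Wnk1f/f and from 23.6 to 31.5 FPKM in Wnk1d/d libraries. Every control lay within the Wnk1d/d range, and the 95% interval of its log2 fold change ran from -0.15 to 0.28 (limma adjusted p = 0.662). *Spry4* ranged from 2.13 to 3.15 FPKM in Wnk1f/f and from 2.74 to 3.42 FPKM in Wnk1d/d libraries, and 1 Wnk1d/d library exceeded all controls (log2 fold change 0.18, 95% interval -0.04 to 0.41, limma adjusted p = 0.212).

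FPKM allows levels to be set between genes, and the mean level in the controls fell in the order *Jun* (56.9 FPKM), *Junb* (45.0), *Egr1* (27.0), *Spry2* (25.9), *Dusp6* (20.7), *Etv5* (11.7), *Fos* (7.62), *Spry4* (2.55), *Etv4* (1.13) and *Fosb* (0.632). In Wnk1d/d uteri 3 pairs of neighbours stood the other way round, *Spry2* (27.3 FPKM) above *Egr1* (19.4), *Fos* (14.7) above *Etv5* (9.17) and *Fosb* (1.85) above *Etv4* (1.06). *Jun* and *Junb* overlapped in both genotypes, as did *Fosb* and *Etv4*. *Spry2* and *Egr1* overlapped among the controls, whereas in Wnk1d/d uteri every value of *Spry2* exceeded every value of *Egr1*. *Egr1* overlapped with *Dusp6*, *Dusp6* with *Fos*, and *Spry4* with *Fosb* among the Wnk1d/d libraries and not among the controls. *Junb* and *Spry2*, and *Etv5* and *Spry4*, were apart in both genotypes. *Fos* lay below *Etv5* in every control library and above it in Wnk1d/d replicates 1, 3 and 4.

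The median log2 fold change was 0.36 for the 5 immediate early genes, the value of *Junb*, and -0.03 for the 5 ERK output genes, beside 0.00 for all tested genes, with quartiles of -0.19 and 0.20. The 2 groups each held 1 called gene, lower in both cases, and 0 of the 10 genes passed when the means also had to differ 1.5-fold or more, against 10.3% of tested genes; 3 of the 10 had an unadjusted limma p under 0.05, against 38.4% of tested genes. Among Wnk1d/d libraries the SD of log2(FPKM + 1) ran from 0.22 (*Junb*) to 0.88 (*Fos*) in the immediate early genes and from 0.07 (*Etv4*) to 0.21 (*Etv5*) in the ERK output genes. Among controls these ranges overlapped, at 0.11 to 0.40 and 0.10 to 0.28. The Wnk1d/d SDs of *Fos*, *Fosb*, *Jun*, *Junb* and *Egr1* exceeded those of 98.8%, 98.2%, 84.6%, 72.2% and 77.4% of tested genes. Those of *Dusp6*, *Spry2*, *Spry4*, *Etv4* and *Etv5* exceeded 9.36%, 60.3%, 20.2%, 7.34% and 70.4%, where the SDs of *Fosb*, *Spry4* and *Etv4* are narrowed by the log2(FPKM + 1) scale at their low levels. A difference between the groups of genes was not tested.

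**Figure D2:**
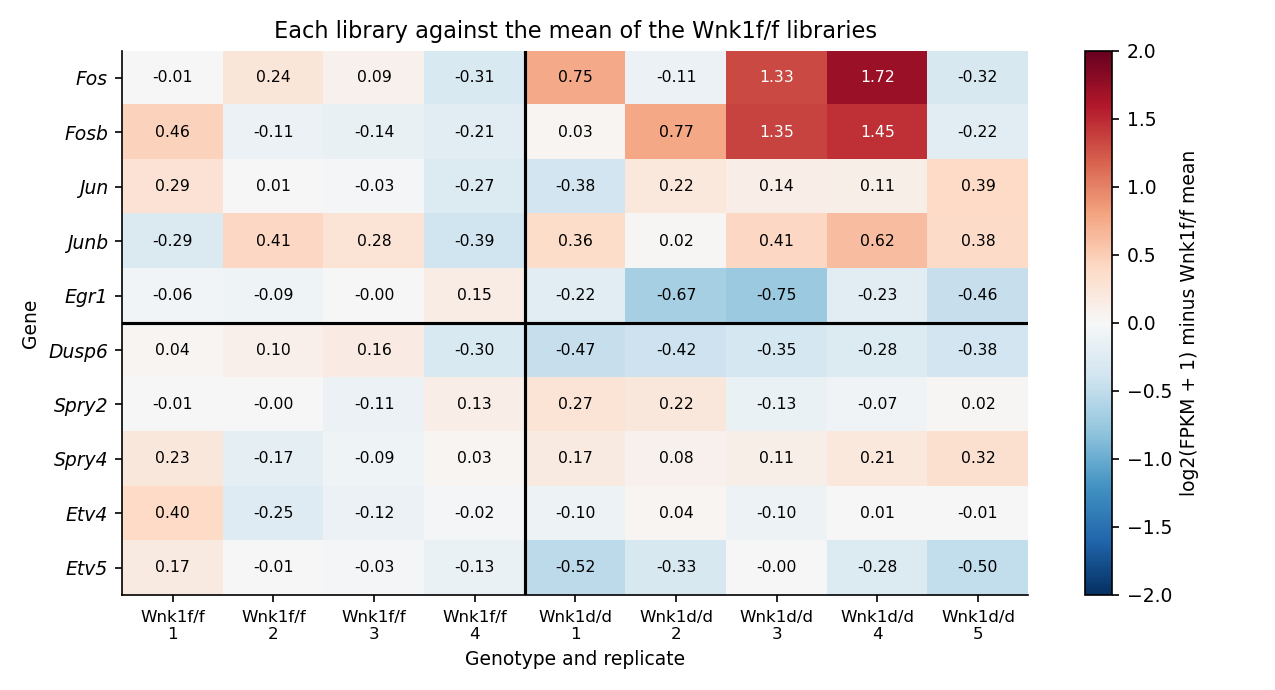
Difference of log2(FPKM + 1) in each library (columns) from the mean of the 4 Wnk1f/f libraries, for the immediate early genes above and the ERK output genes below the horizontal line, with red for higher and blue for lower. *Fos* stands 1.33 and 1.72 above the control mean in Wnk1d/d replicates 3 and 4 and 0.32 below it in replicate 5 (-0.32), whereas *Dusp6* is lower by a like amount in all 5 Wnk1d/d libraries (-0.47 to -0.28).

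Most of the other immediate early genes were not called. Of 28 listed genes 25 were tested, and 1 was called higher and 3 lower in Wnk1d/d uteri, beside 11.1% and 11.0% of all tested genes (median log2 fold change 0.05). *Ier3*, which encodes a regulator of cell survival, was the most abundant, at 132, 150, 140 and 153 FPKM in Wnk1f/f replicates 1 to 4 and 282, 244, 270, 290 and 237 FPKM in Wnk1d/d replicates 1 to 5. The groups did not overlap, and the ratio of the means was 1.84 (log2 fold change 0.87 with an SE of 0.08, limma adjusted p = 0.00143).

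*Klf2* and *Klf6* encode Krüppel-like transcription factors, and *Klf2* is best known from endothelium. *Klf2* was measured at 66.3, 65.8, 56.7 and 63.0 FPKM in Wnk1f/f replicates 1 to 4 and at 27.6, 41.9, 35.4, 35.4 and 35.7 FPKM in Wnk1d/d replicates 1 to 5, and all Wnk1d/d libraries lay below all controls (log2 fold change -0.83 with an SE of 0.11, limma adjusted p = 0.00269). *Klf6* fell from 22.6 ± 1.31 FPKM (SD, n = 4) to 16.4 ± 1.18 FPKM (SD, n = 5; log2 fold change -0.44, limma adjusted p = 0.00529). *Myc*, a transcription factor of growth and proliferation, fell from 98.4 ± 11.3 FPKM (SD, n = 4) to 67.2 ± 10.5 FPKM (SD, n = 5; log2 fold change -0.55, limma adjusted p = 0.0155), also without overlap. *Jund*, the remaining JUN gene and the second most abundant of this list, ranged from 84.2 to 152 FPKM in Wnk1f/f and from 114 to 174 FPKM in Wnk1d/d libraries and was not called (limma adjusted p = 0.292).

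The called genes among the other ERK output and feedback genes also lay on both sides. Of 17 listed genes 14 were tested, and 2 were called higher and 2 lower, beside 11.1% and 11.0% of all tested genes (median log2 fold change -0.06); *Spry3* was listed at 0 in every library. *Il17rd*, which encodes the membrane inhibitor SEF of fibroblast growth factor signalling, was measured at 7.91, 7.06, 7.89 and 8.39 FPKM in Wnk1f/f replicates 1 to 4 and at 5.32, 5.01, 4.10, 5.32 and 4.67 FPKM in Wnk1d/d replicates 1 to 5. These groups did not overlap (log2 fold change -0.59 with an SE of 0.08, limma adjusted p = 0.00383). *Spred3*, a Sprouty-related inhibitor, fell from 6.63 ± 0.658 FPKM (SD, n = 4) to 4.27 ± 0.515 FPKM (SD, n = 5; log2 fold change -0.54, limma adjusted p = 0.00727).

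*Dusp5* encodes a nuclear ERK phosphatase, the counterpart of cytoplasmic DUSP6, and was higher in Wnk1d/d uteri. Its FPKM was 2.38, 1.70, 2.30 and 2.08 in Wnk1f/f replicates 1 to 4 and 2.89, 3.02, 4.18, 3.71 and 3.13 in Wnk1d/d replicates 1 to 5, again without overlap (log2 fold change 0.49 with an SE of 0.11, limma adjusted p = 0.0166). *Ccnd1*, which encodes the cell cycle regulator cyclin D1, rose from 32.0 ± 11.6 FPKM (SD, n = 4) to 64.3 ± 12.7 FPKM (SD, n = 5; log2 fold change 1.03, limma adjusted p = 0.0195), with Wnk1d/d replicate 2 at 44.3 FPKM level with Wnk1f/f replicate 1. *Errfi1*, an inhibitor of the EGF receptor and the most abundant of this list, was not called (log2 fold change 0.23, limma adjusted p = 0.242). Without Wnk1d/d replicate 2 the list held 7 called genes in place of 4.

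All 26 genes of the ERK cascade were tested, from RAS proteins and adaptors to the kinases and nuclear targets of ERK, and 4 were called higher and 4 lower, beside the same 11.1% and 11.0% (median log2 fold change 0.01). The log2 fold change largest in size was that of *Gab1*, which encodes a docking protein that links receptor tyrosine kinases to RAS and PI3K. *Gab1* was measured at 19.1, 19.8, 20.8 and 17.3 FPKM in Wnk1f/f replicates 1 to 4 and at 10.9, 10.6, 8.23, 11.3 and 9.95 FPKM in Wnk1d/d replicates 1 to 5. Each Wnk1d/d library lay below each control, and the mean was 1.89-fold lower (log2 fold change -0.86 with an SE of 0.09, limma adjusted p = 0.00165).

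The related kinases MSK2 and MSK1, which act downstream of ERK, moved in opposite directions. *Rps6ka4* (MSK2) rose from 17.9 ± 1.06 FPKM (SD, n = 4) to 24.2 ± 2.07 FPKM (SD, n = 5; log2 fold change 0.41, limma adjusted p = 0.0076), and *Rps6ka5* (MSK1) fell from 4.04 ± 0.558 FPKM (SD, n = 4) to 2.64 ± 0.401 FPKM (SD, n = 5; log2 fold change -0.47, limma adjusted p = 0.0178). *Elk4*, an ETS partner of serum response factor, fell from 44.8 ± 3.20 FPKM (SD, n = 4) to 34.9 ± 3.48 FPKM (SD, n = 5; log2 fold change -0.35, limma adjusted p = 0.0186). The ERK1 gene *Mapk3* was the most abundant of the list, at 156 to 201 FPKM in Wnk1f/f and 134 to 166 FPKM in Wnk1d/d libraries, and was not called (log2 fold change -0.17, 95% interval -0.38 to 0.04, limma adjusted p = 0.209). The RAF gene *Araf*, next in abundance, did not overlap between the genotypes but missed the threshold (log2 fold change -0.18, limma adjusted p = 0.0507). The count of 8 fell to 5 without Wnk1f/f replicate 2 and to 4 without Wnk1f/f replicate 4, Wnk1d/d replicate 3 or Wnk1d/d replicate 5. RNA levels do not give the phosphorylation of ERK, which was not analysed here.

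**Figure D3:**
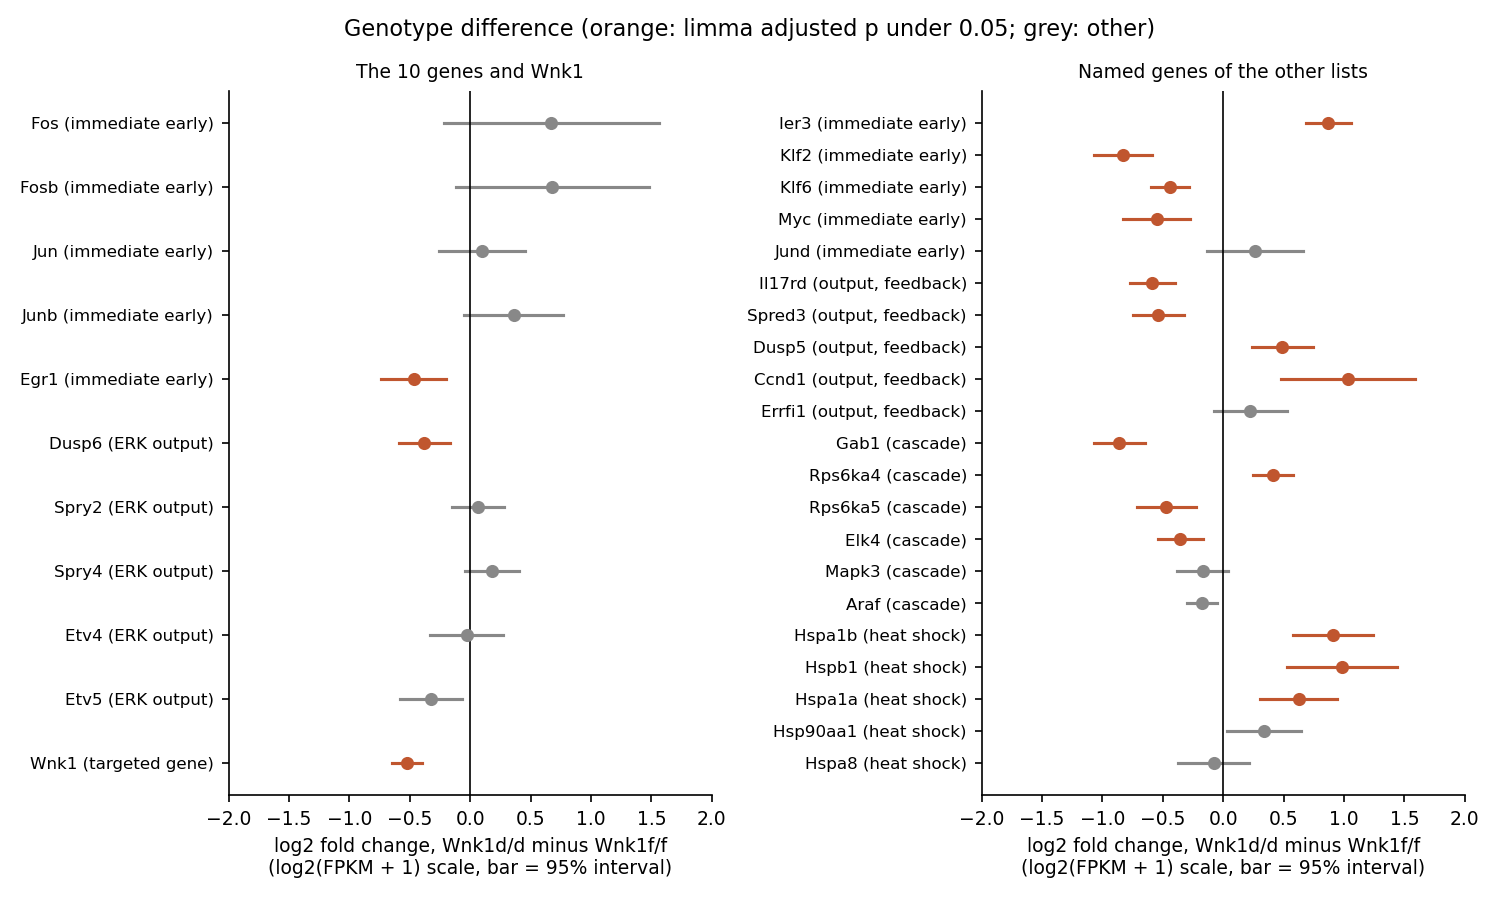
Log2 fold change on the log2(FPKM + 1) scale (horizontal axis, Wnk1d/d minus Wnk1f/f) with its 95% interval for the 10 genes and *Wnk1* (left) and for the named genes of the other lists (right), in orange where the limma adjusted p was under 0.05 and in grey otherwise. *Egr1* and *Dusp6* lie below 0, the intervals of *Fos* and *Fosb* are the widest on the left, and called genes of the other lists fall on both sides.

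Heat shock genes, which many immediate early stimuli also induce, are given beside the immediate early genes. All 8 were tested, and 3 were called higher and 0 lower in Wnk1d/d uteri, beside 11.1% and 11.0% of all tested genes (median log2 fold change 0.34). *Hspa1b*, an inducible HSP70 gene, was measured at 25.4, 19.5, 24.1 and 14.9 FPKM in Wnk1f/f replicates 1 to 4 and at 39.4, 41.0, 46.2, 37.0 and 34.5 FPKM in Wnk1d/d replicates 1 to 5. The groups did not overlap (log2 fold change 0.91 with an SE of 0.15, limma adjusted p = 0.00562). Its near-identical neighbour *Hspa1a* (log2 fold change 0.63, limma adjusted p = 0.0158) may share reads with it, so the division between the pair is uncertain. The small heat shock gene *Hspb1*, which muscle also expresses, rose from 69.8 ± 17.0 FPKM (SD, n = 4) to 138 ± 27.8 FPKM (SD, n = 5; log2 fold change 0.98, limma adjusted p = 0.0117). *Hsp90aa1* and *Hspa8* were not called (log2 fold change 0.34 and -0.08, limma adjusted p = 0.102 and 0.688).

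Single libraries differed in where these genes peaked, in a count chosen after the values had been seen. Of the 30 tested immediate early genes, members and others together, 15 had their highest value of the 9 libraries in Wnk1d/d replicate 4, against 12.9% of all tested genes. Among the 19 tested ERK output genes, members and others together, 1 peaked in that library. Of the 8 heat shock genes 6 peaked in Wnk1d/d replicate 3 and 7 were lowest in Wnk1f/f replicate 4, the shares over all tested genes being 12.9% and 21.3%. Genes of a list are not independent of each other, and what these libraries share was not tested.

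*Fos* had the widest range of the immediate early genes (2.04 on the log2(FPKM + 1) scale) and *Etv5* that of the ERK output genes (0.70). Each was compared over the 9 libraries, after centring within genotype, with 11042 tested genes of at least 5 FPKM. The patterns closest to *Fos* were those of *Tnc* (root mean square difference 0.33), which encodes the matrix protein tenascin C, *Nptx2* (0.34), *AK205147* (0.36), *AA465934* (0.37) and *Car4* (0.38). The root mean square of *Fos* about its own genotype means was 0.60, so that even these genes followed it loosely. *Tnc* was measured at 3.03, 2.53, 3.61 and 2.24 FPKM in Wnk1f/f replicates 1 to 4 and at 7.51, 3.86, 10.9, 12.2 and 6.30 FPKM in Wnk1d/d replicates 1 to 5, with the same pair of Wnk1d/d libraries highest. For *Etv5*, whose own root mean square was 0.16, the closest were *Dnaaf2* (0.05), *Mthfd1* (0.05), *D2Wsu81e* (0.06), *Hyou1* (0.06) and *C2cd2l* (0.07). Each had its highest Wnk1d/d value in replicate 3, as *Etv5* did. The shared peaks of *Tnc* and of these genes follow from choosing genes by likeness and are no separate result.

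Markers of cell types shifted with genotype beside these genes. All 6 smooth muscle markers were called higher in Wnk1d/d uteri, led in abundance by *Tagln*, and their summed level was 6372, 4108, 5236 and 2797 FPKM in Wnk1f/f replicates 1 to 4 and 9476, 7210, 10758, 13655 and 13107 FPKM in Wnk1d/d replicates 1 to 5. Every Wnk1d/d library exceeded every control, and the 2 highest sums were those of Wnk1d/d replicate 4, highest in *Fos* and *Fosb*, and Wnk1d/d replicate 5, lowest in both. All 6 endothelial markers were called lower, led by *Pecam1*, and summed to 331, 367, 351 and 350 FPKM in Wnk1f/f replicates 1 to 4 and 131, 266, 173, 227 and 216 FPKM in Wnk1d/d replicates 1 to 5. Again the genotypes did not overlap. None of the genes of either list was at 0 in all libraries.

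Of 6 stroma markers 2 were called higher, *Col1a1* and *Col3a1*, and 3 lower, *Pdgfra*, *Hand2* and *Thy1*. With *Col3a1* the most abundant, the summed level was 1819 ± 189 FPKM (SD, n = 4) in Wnk1f/f and 2327 ± 212 FPKM (SD, n = 5) in Wnk1d/d libraries. This sum follows the abundant genes and not the 3 that were lower. Of 6 epithelial markers 1 was called higher, *Krt18* being the most abundant, and the sums were 813 ± 128 FPKM (SD, n = 4) and 951 ± 204 FPKM (SD, n = 5). For leukocytes 0 of 5 measured markers was called, for red blood cells 0 of 3 tested and for liver 0 of 7, with *Cd68*, *Hbb-bs* and *Alb* the most abundant. Leukocyte markers summed to 34.5 to 80.5 FPKM and red blood cell markers to 67.2 to 303 FPKM, with overlapping genotypes. Of the 5 fat markers only *Fabp4*, which endothelium also expresses, was tested, and it was called higher. The part that these shifts in tissue makeup have in the levels of the immediate early and ERK output genes was not tested.

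**Figure D4:**
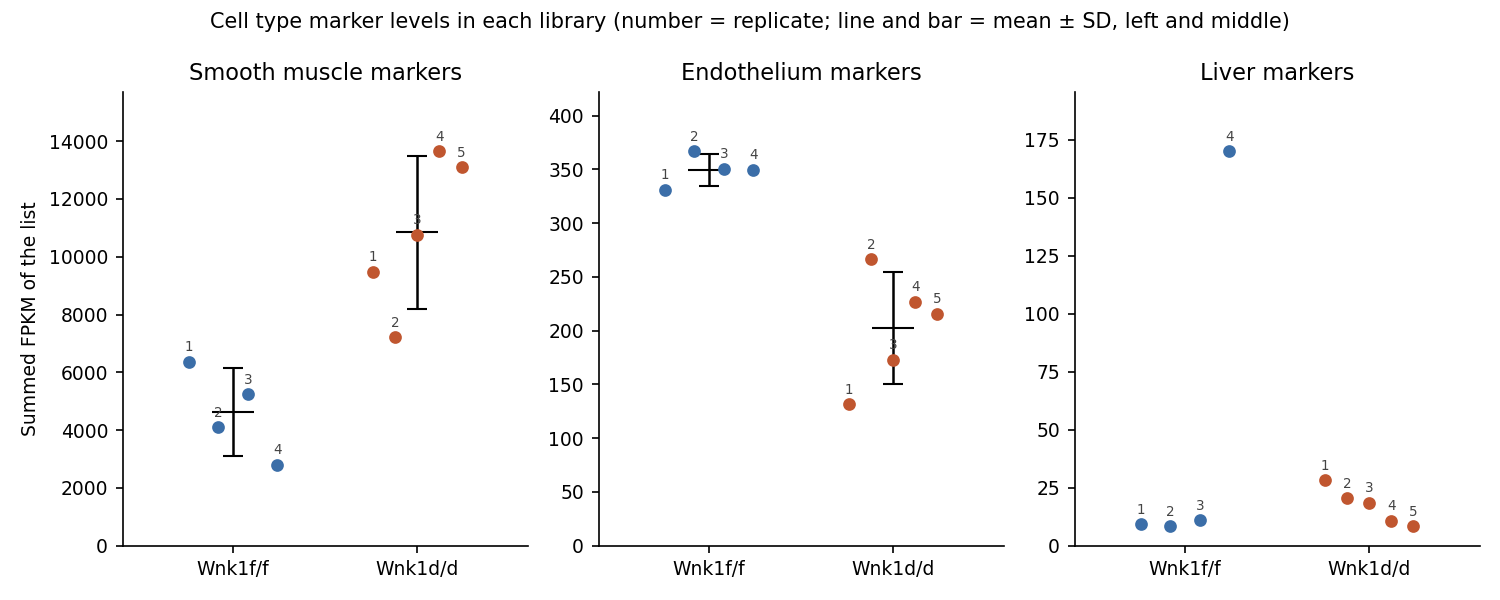
Summed FPKM (vertical axes, each from 0) of 6 smooth muscle, 6 endothelial and 7 liver markers in each library, with points numbered by replicate and, for the left and middle panels, lines with bars for the mean ± SD. Smooth muscle sums are higher and endothelial sums lower in all 5 Wnk1d/d libraries than in the 4 controls, and liver transcripts stand at 170 FPKM in Wnk1f/f replicate 4 against at most 28.2 FPKM elsewhere. Of the 28.2 FPKM, in Wnk1d/d replicate 1, *Serpina1a* held 23.3 FPKM.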

How the data were processed

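Per the submitters' processing notes and the methods of the study, libraries made with a TruSeq RNA kit were read as 75 nt pairs, aligned by the authors to mm10 with TopHat2 2.0.4, and the deposited values are FPKM per gene symbol without pooling of replicates. The notes name Cufflinks 2.0.2 and the methods a later Cufflinks release, so the release behind the FPKM is uncertain. The gene annotation is not given in the sources used here. From these values log2(FPKM + 1) was computed and fitted with limma 3.58.1 in R 4.3.3 (eBayes with trend, unpaired, two-sided). The 14728 genes whose mean FPKM exceeded 1 in either genotype were adjusted together by the Benjamini-Hochberg method. The limma step was tested on simulated data. Over all tested genes, 3249 were called, 1630 higher and 1619 lower; without Wnk1f/f replicate 4, Wnk1d/d replicate 3 or Wnk1d/d replicate 5 the count was 1739, 1800 or 2051. Single genes were also compared by exact permutation tests over 9 libraries (SciPy 1.17.1, NumPy 2.4.6, Python 3.11.15), run for the 10 genes and *Wnk1* and not adjusted. The low values used to compare depth were picked after several choices had been looked at.

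The members and lists were chosen with earlier results of these data known. Genes were named by a rule: the 10 members, *Wnk1*, from each list the 4 with the lowest adjusted p and the 2 most abundant, and for the member of widest range in each group the 5 nearest genes of at least 5 FPKM. Alternatives were pseudocounts of 0.1 and 0.01, no filter, quantile normalization, median scaling, a filter at 5 FPKM, no trend, robust estimation, library weights, a replicate block and leaving out each library. Promoter sequences come from RefSeq (GRCm38.p6) and gene positions from GENCODE (mm10), matched by symbol.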

Additional observations from a re-analysis of the deposited data

Results flagged for a closer look

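Within each genotype, 53 values (106 groups of libraries) were checked for a library whose gap to its nearest neighbour took up most of the range of its group (above Dixon's 95% value). Chance flags about 1 in 20 groups, and 5 were found. *Fosb* in Wnk1f/f replicate 1 stood at 1.21 FPKM against 0.39 to 0.48 FPKM in the other controls. *Mthfd1* stood at 31.7 FPKM in the same library against 27.2 to 27.8 FPKM. This gene had been chosen for its likeness to *Etv5*, which was also highest among the controls in that library. Wnk1f/f replicate 4 stood apart in the summed liver markers, at 170.0 FPKM, and in its score of -48.3 on the first principal component. Wnk1d/d replicate 4 stood apart in the share of its summed FPKM held by the largest entry, 70.3%.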

How the results depend on the processing

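Pseudocounts, filters, median scaling, quantile normalization, limma without trend and robust estimation kept both member counts at 1 and turned no direction among the 10 genes; *Fosb*, *Spry4* and *Etv4* were not tested under the filter at 5 FPKM. With library weights the ERK output genes held 2 called genes, *Dusp6* and *Etv5* (log2 fold change of *Etv5* -0.38, limma adjusted p = 0.0409), and the transcriptome count rose from 3249 to 4230. Leaving out each library in turn, the called genes ranged from 1739 to 4216 for the transcriptome, 0 to 1 for the immediate early genes, 0 to 2 for the ERK output genes, 4 to 6 for the other immediate early genes, 3 to 7 for the other output and feedback genes, 4 to 10 for the cascade and 3 to 4 for the heat shock genes. The log2 fold change of *Egr1* ranged from -0.53 to -0.40 and that of *Dusp6* from -0.48 to -0.32 in these fits, that of *Fos* from 0.41 to 0.92, that of *Fosb* from 0.49 to 0.90, that of *Jun* from 0.005 to 0.22, that of *Junb* from 0.23 to 0.49, that of *Spry2* from 0.01 to 0.11, that of *Spry4* from 0.12 to 0.26 and that of *Etv5* from -0.41 to -0.27. That of *Etv4* ranged from -0.11 to 0.10 and changed sign without Wnk1f/f replicate 1 (log2 fold change 0.10, limma adjusted p = 0.524). These fits hold fewer samples, and a further cause was not tested.

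Same-numbered libraries of the genotypes come from different mice and did not deviate together (r across genes -0.09, -0.00, 0.02 and -0.27 for replicates 1 to 4), and 0 of 4 controls correlated best with its own number. Wnk1d/d replicate 5 has no control of its number, so a replicate block takes it out of the comparison as well, and the matched fit is the unblocked one without it. With the number as a replicate block, 220 genes were called, against 2051 without Wnk1d/d replicate 5 and 3249 with all libraries. The block called 0 of the immediate early genes, 0 of the ERK output genes, 2 of the other immediate early genes, 0 of the other output and feedback genes, 1 of the cascade and 1 of the heat shock genes. The adjusted p was then 0.0852 for *Egr1*, 0.132 for *Dusp6* and 0.0518 for *Wnk1*, against 0.0521, 0.0495 and 0.00668 without Wnk1d/d replicate 5 and without the block. The log2 fold changes of these genes were -0.47, -0.38 and -0.52 in the blocked fit and in the matched fit alike. Absolute depth is unknown, which limits what can be said of *Fosb*, *Etv4* and *Spry4*, all under 4 FPKM.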
